A study of Mus musculus with 13 samples.

Results

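A small share of autosomal 1 kb windows (tiles) kept high methylation in female mouse induced pluripotent stem cells (iPSCs) whose label gives both X chromosomes as active (XaXa), and whose genome is otherwise broadly low in methylation. A tile was eligible with 3 or more CpGs and 20 or more reads in each of the 2 XaXa libraries and in the pooled reads of female XO and of male (XY) iPSCs. It was highly methylated at 70% or more in pooled XO and in pooled XY iPSCs, and resistant where it also reached 65% in both XaXa libraries. There were 2296 resistant tiles, 3.63% of the 63255 highly methylated tiles, 1.70% of the 135188 eligible tiles, and part of 539151 autosomal tiles with a read in any library. The tiles were chosen by their levels in XaXa, XO and XY iPSCs, so those levels are given as a description and carry no test. Methylation was measured by reduced representation bisulfite sequencing (RRBS), which reads CpGs beside the cut sites of a restriction enzyme. The groups were XaXa iPSCs (libraries 7 and 8), XO iPSCs (3, 5, 6 and 9), XY iPSCs (1, 2 and 4), male cells sorted as negative or positive for the surface antigen SSEA1 (library 2 of each), and male mouse embryonic fibroblasts (MEF, libraries 4 and 5). The labels name no strain, transgene or passage, the iPSCs had been freed of feeder cells, and nothing says which libraries share a line or culture.

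CpG methylation is copied after replication by Dnmt1 and set anew by Dnmt3a and Dnmt3b. Mouse pluripotent cells with a pair of active X chromosomes are known for low methylation over the whole genome. Some sequences are known to hold on to methylation when the rest of the genome loses it, among them imprinted control regions and several families of retroviral repeats, where Trim28 and KRAB zinc finger proteins act. A methylation level here is the percent of reads that are methylated, summed over the CpGs of a tile in 1 library. Coordinates are mm9, counted from 1.

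The labels were checked against the files. Total CpG reads ran from 4784488 in XO 9 to 143148634 in XaXa 8. Depth on X, relative to the autosomes and to XY iPSCs, was 1.30 and 1.20 in XaXa 7 and 8. It was 1.29, 1.12, 1.03 and 1.29 in the libraries labelled XO 3, 5, 6 and 9. It was 1.27 in the library labelled MEF 5, and reads on Y there came to 0.0219% of those on autosomes, compared with 0.0913% for MEF 4. The promoter window of Pou5f1, the pluripotency factor Oct4 (chromosome 17, 35642727 to 35643026), was at 71.4% in XO 3 (49 reads) and 26.7% in XO 5 (101 reads), and between 0% and 9.68% in the other iPSC libraries. In the SSEA1 negative and positive libraries it was at 100% (6 reads) and 66.7% (21 reads), and in MEF 4 and 5 at 66.7% (6 reads) and 52.4% (21 reads). X depth set XO 3 and 9 and MEF 5, and less so XO 5, apart from the XY libraries (0.983 to 1.04). XO 3 and 9 lay between XaXa 8 and XaXa 7, so X depth did not tell them from XaXa. The Pou5f1 window set XO 3 and 5 apart from the other iPSCs. Without XO 3, 5 and 9 there were 2277 resistant tiles.

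Many resistant tiles held copies of 1 recurring arrangement of CpGs. Among runs of 3 CpGs read in XaXa 8, 456 spacings with their neighbouring bases recurred in 100 or more eligible tiles, and 149 of these had 50 or more highly methylated tiles. The median share of resistant tiles over these 149 spacings was 0%. The 3 spacings with the highest shares, 72.7%, 72.3% and 68.1%, lay in tiles of which nearly all held the same arrangement, and the next spacing was at 26.9%. The arrangement is a CpG in CCGG, a CpG in ACGG 7 bases on and a CpG in CCGG 276 bases after that, on either strand. It was found after the levels had been seen and is described without a test. No repeat annotation or mm9 genome was used here, so the arrangement is not given a repeat name. The bases around its CpGs are given because they identify the element to a reader who has such an annotation. Each is the base shared by at least 80% of the copies that carry a CpG there, written 5′ to 3′, with CpGs in capitals and n for a base that varies or lies out of reach of the deposited context.
Bases -2 to 9 from the first CpG: tcCGgtnaaCGg
Bases 219 to 230: aaCGactgCGta
Bases 2799 to 2815: gtCGgaggCGgcaCGca
Bases 3757 to 3772: taCGnacCGactCGgc
Bases 3798 to 3816: acCGgagCGtgnncaCGcc
In these 5 stretches the least conserved base printed as a letter was shared by 97.7% of the copies. The CCGG and ACGG of the first stretch are fixed by the definition of the arrangement. Some stretches not printed were less alike, with a least conserved base at 81.8% at bases 281 to 286 and 82.6% at bases 2841 to 2846.

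There were 1086 copies of the arrangement, between 20 and 88 on each of the 19 autosomes. They put 757 tiles among the 2296 resistant tiles (33.0%). Of the 1069 highly methylated tiles with the arrangement, 757 were resistant (70.8%), against 1539 of 62186 highly methylated tiles without it (2.47%). The tiles with the arrangement were also higher in XO and XY iPSCs, with medians of 90.9% and 91.8% against 82.1% and 82.4% without it. Shares at matched levels are therefore also given. They are a description, since the arrangement was picked by its resistant share in these same tiles. Among tiles with a mean of pooled XO and XY levels from 90% to under 95%, 619 of 781 tiles with the arrangement were resistant (79.3%), against 801 of 3127 without it (25.6%). From 85% to under 90% the shares were 48.5% of 260 tiles and 3.79% of 15284 tiles.

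**Figure D1:**
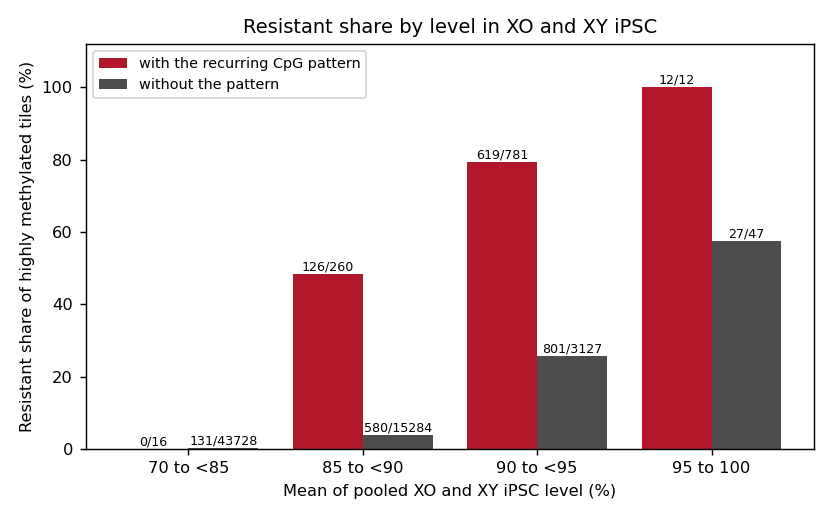
Percent of highly methylated tiles that were resistant (y axis) by the mean of their pooled XO and XY iPSC levels (x axis, percent), for tiles with the recurring CpG arrangement (red) and without it (grey), with counts above the bars. In the bin from 90% to under 95%, 79.3% of the tiles with the arrangement and 25.6% of the others were resistant. The arrangement was picked by its resistant share in these tiles.

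Pooled over copies, the 3 defining CpGs were at 73.8% and 69.5% in XaXa 7 and 8. They were at 91.7%, 91.3%, 91.4% and 88.4% in XO 3, 5, 6 and 9 and at 89.4%, 91.4% and 92.7% in XY 1, 2 and 4. They were at 85.8% and 85.3% in SSEA1 negative and positive cells and at 88.3% and 88.7% in MEF 4 and 5. Both XaXa libraries were below every other library at these CpGs. The SD between copies was above the SD from counting each CpG read as independent. The first CpGs of a copy lie 7 bases apart and can share a read, so the SD from counting is too low. Whether copies varied beyond counting error is therefore not settled. In XaXa 8 the SD between copies with 20 or more reads was 6.32 points, against 3.57 points from counting, and in XaXa 7 it was 7.57 against 6.17 points. Over 1081 copies with 20 reads in both XaXa libraries, the levels in XaXa 7 and 8 had a Pearson r of 0.305 and a Spearman rho of 0.236. These copies share their sequence, and reads of near-identical copies may be placed at the wrong copy, so r is a description across copies. Of these copies, 799 (73.9%) were at 65% or more in both XaXa libraries.

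Methylation was not even along the element. CpGs at fixed distances from the first CpG recurred in 400 or more copies up to 3823 bases on. Those from 2226 bases on were found in 430 to 510 of the 1086 copies, so the positions do not cover the same copies. The CpG 2408 bases on was at 77.1% and 70.5% in XaXa 7 and 8, against 92.7% in pooled XO, 93.7% in pooled XY and 90.9% in pooled MEF. The CpG 2766 bases on was at 79.4% and 69.0% in XaXa 7 and 8, against 93.4% in pooled XO, 94.4% in pooled XY and 88.1% in pooled MEF. By contrast, the CpG 2843 bases on was at 28.3% and 17.3% in XaXa 7 and 8, against 65.1% in pooled XO, 79.6% in pooled XY and 73.7% in pooled MEF. The CpG 3813 bases on was at 34.9% and 20.2% in XaXa 7 and 8, against 60.3% in pooled XO, 81.2% in pooled XY and 86.5% in pooled MEF. High and low CpGs in XaXa thus lay within 77 bases of each other, at 2766 and 2843 bases. These CpGs were named for their high or low levels, and other positions lay between. In XaXa 8, the CpGs 2226, 2801 and 3764 bases on were at 51.3%, 50.4% and 53.2%. Those 2711 and 2733 bases on were at 67.6% and 69.6% in XaXa 8. The low CpGs also varied among XO and XY libraries: 2843 bases on they were at 52.5% to 70.7% in XO and 67.2% to 84.8% in XY, which overlapped, while both XaXa libraries were below all of these. Beyond the defining CpGs, the reach of a copy (2 kb before to 5 kb after) held 39 further resistant tiles.

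**Figure D2:**
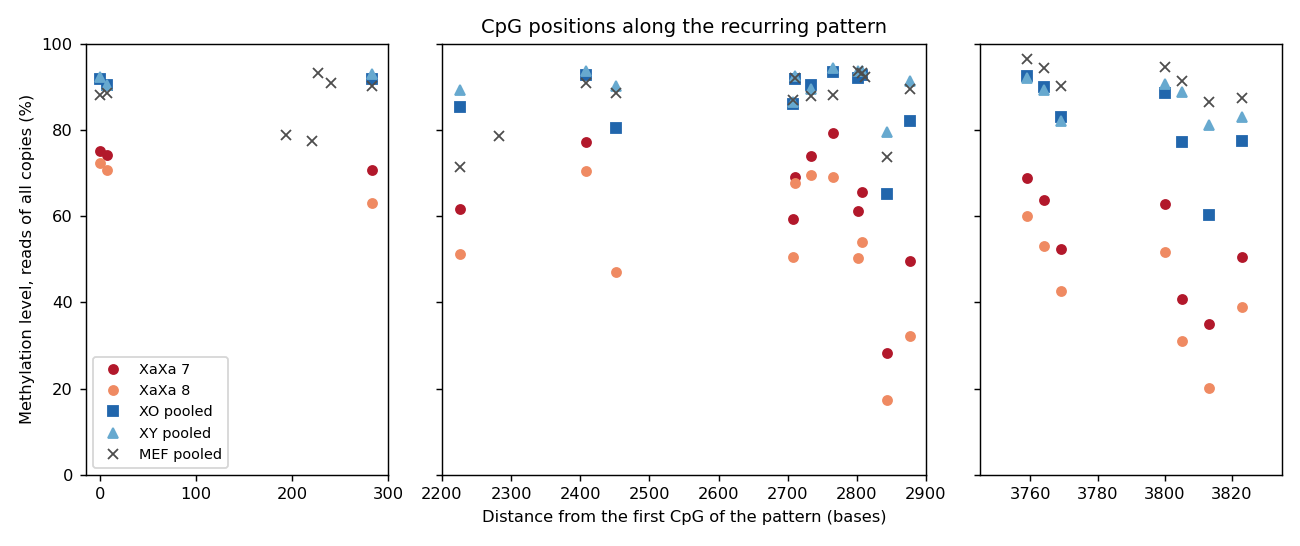
Methylation level in percent (y axis) of CpGs at fixed distances in bases from the first CpG of the recurring arrangement (x axis, 3 stretches), pooled over copies, for XaXa 7, XaXa 8, pooled XO, pooled XY and pooled MEF. XaXa points lie between 63.1% and 75.1% at the defining CpGs and between 17.3% and 34.9% at 2843 and 3813 bases, and at 194 to 241 bases only MEF is plotted.

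A further 7 recurring spacings, without the arrangement above, were picked for a resistant share of 15% or more, and their shares ran from 19.6% to 26.9%. They lay in 436 highly methylated tiles, of which 92 were resistant (21.1%). These 436 tiles had medians of 66.1% and 59.5% in XaXa 7 and 8, and medians from 85.7% (XO 9) to 90.8% (XY 4) in the XO and XY libraries. Resistant tiles with neither kind of recurring spacing numbered 1447 (63.0%), and 2.34% of highly methylated tiles with neither were resistant.

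Most resistant tiles passed the 65% threshold by a few points. The median level was 75.5% (quartiles 71.2% and 79.8%) in XaXa 7 and 69.2% (66.9% and 72.4%) in XaXa 8, against 55.4% and 46.0% in the other highly methylated tiles. XaXa 8 was below XaXa 7 in 1863 of the 2296 tiles. The lower of both XaXa levels had a median of 68.7%, was under 70% in 1428 tiles and was at 80% or more in 33 tiles. No tile had both levels above 88.6%. The median of the resistant tiles was from 88.4% (XO 9) to 91.5% (XO 5) in XO libraries and from 89.6% (XY 1) to 91.7% (XY 4) in XY libraries, so that even these tiles were lower in XaXa. Counting error alone is wide at this depth, with medians of 60 reads per tile in XaXa 7 and 233 in XaXa 8. The lower bound of the 95% Wilson interval was at 65% or more in both XaXa libraries in 442 resistant tiles, 110 of them with the recurring arrangement. Reads are summed over CpGs, and PCR copies cannot be told apart, so these intervals cover counting error only and are too narrow. Of 18248 highly methylated tiles with 100 or more reads in each XaXa library, 509 were resistant (2.79%).

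The share of resistant tiles followed the level in XO and XY iPSCs. It was 0.0154% of tiles with a mean XO and XY level of 70% to under 75%, 0.566% from 80% to under 85%, 4.54% from 85% to under 90%, 36.3% from 90% to under 95%, and 66.1% of the 59 tiles at 95% or more. Pooled XO and XY levels had medians of 90.7% and 91.0% in resistant tiles, against 81.9% and 82.2% in the other highly methylated tiles. Both measures enter the rule, so this is a description of what the rule takes.

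**Figure D3:**
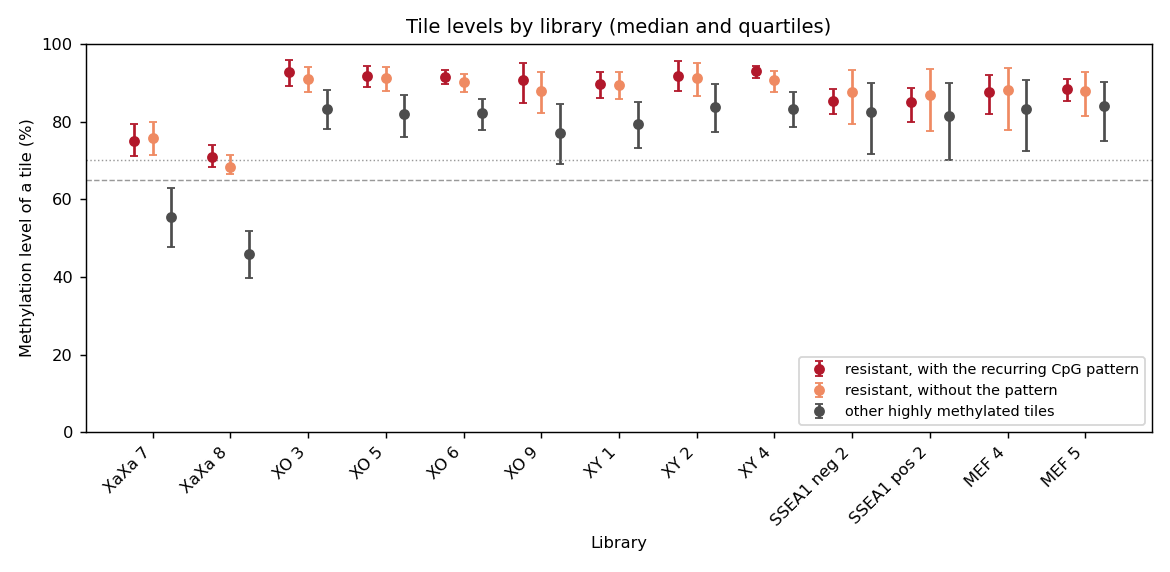
Median tile level with quartiles (points and bars, y axis, percent) in each of the 13 libraries (x axis) for resistant tiles with the recurring arrangement, resistant tiles without it and the other highly methylated tiles; dashed and dotted lines mark 65% and 70%. The sets lie 20.04 and 23.3 points apart in XaXa 7 and 8 (resistant minus other) and 3.86 to 4.75 points apart in SSEA1 sorted cells and MEF.

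In cells the rule did not use, resistant tiles were also slightly more methylated, though less so than in iPSCs. Their median was 86.4% in SSEA1 negative and 85.7% in SSEA1 positive cells, against 82.5% and 81.5% in the other highly methylated tiles. In MEF 4 and 5 it was 87.9% and 88.2%, against 83.1% and 84.0%. The 4 differences were 3.86, 4.17, 4.75 and 4.13 points (median 4.15 ± 0.372, SD over the 4 libraries). The differences varied with the level in XO and XY iPSCs. In the bin from 90% to under 95% of the XO and XY mean, the medians were 86.4% and 85.8% in SSEA1 negative and positive cells, against 86.4% and 85.7% in the other tiles of the bin. In MEF 4 and 5 they were 88.5% and 88.6%, against 87.7% and 88.0%. The median difference there was 0.352 points. From 85% to under 90% the 4 differences, in the order above, were 0.608, 0.925, 0.845 and 0.641 points. From 80% to under 85%, with 69 to 92 resistant tiles read, they were 4.85, 5.04, 3.44 and 1.56 points. At 95% or more, with 18 to 29 resistant tiles read, resistant tiles were lower, with differences of -3.84, -2.38, -10.1 and -7.34 points. MEF and SSEA1 libraries read CpGs farther from the cut site than iPSC libraries did: 32.5% to 32.8% of their autosomal CpGs lay over 40 bases from a CCGG, against 1.26% to 1.51% in iPSC libraries. On the CpGs read in all 13 libraries the 4 differences were 3.32, 3.80, 5 and 3.99 points, in the order above. Among resistant tiles with 20 reads, 94.5% in SSEA1 negative, 94.5% in SSEA1 positive, 94.5% in MEF 4 and 97.2% in MEF 5 were at 65% or more.

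CpG density did not set the resistant tiles apart in the middle of its range. Resistant tiles had a median of 7 CpGs read in any library (quartiles 6 and 10), against 7 (5 and 10) in the other highly methylated tiles and 8 (5 and 15) in all eligible tiles. The XaXa levels rest on fewer CpGs, with medians of 4 in XaXa 7 and 4 in XaXa 8. The other highly methylated tiles had medians of 4 and 5 there. In resistant tiles with the arrangement the median was 3 in both, the fewest that the rule allows. The densest tiles were seldom resistant: 40 of 2553 highly methylated tiles with 20 to 39 CpGs (1.57%) and 1 of 268 with 40 or more (0.373%). Tiles with 8 to 11 CpGs had the highest share, 4.98%, which was 2.98% without the tiles that hold the recurring arrangement. Depth differed by library and in both directions. Median reads per CpG of resistant tiles over those of the other highly methylated tiles ran from 0.656 in XaXa 8 to 1.24 in XY 4, with 1.04 in XaXa 7. In XaXa 8 the median was 51.3 reads per CpG in resistant tiles with the arrangement, 78.7 in those without it, and 90.6 in the other highly methylated tiles. The part of depth in the result was not tested; among tiles with 800 or more reads in XaXa 8, 1.87% of highly methylated tiles were resistant, against 9.81% at 100 to 199 reads, where the share was 2.89% without the arrangement.

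Resistant tiles lay on each autosome, and their median distance to a placed gene start was larger than that of the other tiles. Their share of highly methylated tiles was from 3.07% on chromosome 11 to 4.501% on chromosome 13. Promoter windows from RefSeq (GRCm38.p6) were placed on the mm9 tables by their CpG spacing and context, which placed 12162 of 31396 windows, from 10625 genes. The median distance of resistant tiles to the nearest placed start was 136.9 kb, against 106.0 kb for the other highly methylated tiles and 57.5 kb for eligible tiles. Those with the recurring arrangement were at 241.6 kb and those without it at 112.4 kb. Many windows could not be placed, so the true distances are shorter and a nearest placed start need not be the nearest gene. A placed promoter window overlapped 5 resistant tiles (0.218%), 0.276% of the other highly methylated tiles and 7.39% of eligible tiles. Of the 173 highly methylated tiles with a promoter window, 2.89% were resistant, close to the 3.63% of all highly methylated tiles.

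The 5 promoter tiles belonged to Gm32434 with 1700057H21Rik (chromosome 2, 51293001 to 51294000), Bglap3 (chromosome 3, 88175001 to 88176000), Gm36027 (chromosome 5, 111785001 to 111786000), Tc2n (chromosome 12, 102950001 to 102951000) and Gm15722 (chromosome 15, 85921001 to 85922000). Bglap3 belongs to the osteocalcin family, whose members are close in sequence, so reads there may be shared with its relatives. In XaXa 7 and 8 the Gm32434 tile was at 75.4% (57 reads) and 66.2% (133 reads), the Bglap3 tile at 80% (20 reads) and 65.3% (144 reads), and the Gm15722 tile at 66.7% (24 reads) and 71.6% (81 reads). These are shallow tiles close to the threshold. For the tiles that hold the whole window, the RefSeq promoter (250 bases before to 50 after the start) is shown on the gene's strand, with the CpGs read in both XaXa libraries in capitals. The windows are chr2:51293262-51293561 (plus strand), chr3:88175352-88175651 (minus strand) and chr15:85921697-85921996 (minus strand), placed on mm9.
Gm32434: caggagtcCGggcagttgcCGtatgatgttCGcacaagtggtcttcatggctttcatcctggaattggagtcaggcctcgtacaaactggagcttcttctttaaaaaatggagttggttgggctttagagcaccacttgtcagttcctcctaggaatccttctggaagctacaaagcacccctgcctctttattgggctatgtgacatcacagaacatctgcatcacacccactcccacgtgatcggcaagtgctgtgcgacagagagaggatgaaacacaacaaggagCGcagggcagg
Bglap3: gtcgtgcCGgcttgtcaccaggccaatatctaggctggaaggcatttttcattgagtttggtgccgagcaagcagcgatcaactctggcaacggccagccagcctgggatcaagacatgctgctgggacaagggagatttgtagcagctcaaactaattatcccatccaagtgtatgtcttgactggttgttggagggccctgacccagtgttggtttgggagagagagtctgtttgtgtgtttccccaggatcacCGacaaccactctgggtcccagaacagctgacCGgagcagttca
Gm15722: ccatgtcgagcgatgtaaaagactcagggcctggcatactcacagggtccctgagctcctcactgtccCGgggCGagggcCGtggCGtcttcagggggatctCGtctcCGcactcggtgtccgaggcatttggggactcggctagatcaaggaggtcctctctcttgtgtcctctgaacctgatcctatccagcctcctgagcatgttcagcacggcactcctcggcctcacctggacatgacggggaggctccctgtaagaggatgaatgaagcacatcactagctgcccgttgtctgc
Few CpGs carry the tile levels: each XaXa library read 6, 3 and 8 CpGs in the tiles of Gm32434, Bglap3 and Gm15722.

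How far both XaXa thresholds picked the same tiles is given as a description, since both levels enter the rule. Of the 63255 highly methylated tiles, 2694 (4.26%) were at 65% or more in XaXa 8, and 85.2% of these were also at 65% or more in XaXa 7, against 22.2% of all highly methylated tiles. The median level in XaXa 7 was 74.1% in the chosen tiles, against 55.4% in those not chosen. In the other direction, 14034 tiles (22.2%) were at 65% or more in XaXa 7 and 16.4% of these reached 65% in XaXa 8, against 4.26% of all. With 100 or more reads in both libraries the first share was 92.5%, against 20.6% of all, and without the recurring arrangement it was 82.9%, against 21.1%. Since XO and XY levels bear on both libraries, the same was done among tiles with an XO and XY mean from 85% to under 95%. There, 86.3% of the tiles chosen in XaXa 8 reached 65% in XaXa 7, against 46.4% of all tiles in that range. The tile list depends on XaXa 8: without it 14088 tiles met the rule, and without XaXa 7 4008 did.

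Levels in iPSCs and fibroblasts were compared in a quasi-binomial model. It took all eligible tiles with 10 or more reads in each of the 11 XaXa, XO, XY and MEF libraries. A tile was called at a Benjamini-Hochberg adjusted p under 0.05 and a difference of 10 points or more. Of the 2296 resistant tiles, 1353 passed the read filter. Against MEF, XaXa iPSCs were lower in 814 of these (60.2%) and higher in 16 (1.18%). The background was 68.8% lower and 0.797% higher over the 82940 tiles tested, and 83.9% lower and 0.850% higher over the 36695 highly methylated ones. The median difference was -16.7 points in resistant tiles and -34.1 points in highly methylated tiles. The rule used the XaXa levels, so the smaller difference is a description. The count rests on single libraries: without MEF 5 18.8% of resistant tiles were called lower, against 43.9% of all tiles. Without XaXa 8 the shares were 22.4% and 48.3%, and with limma on log2 ratios they were 32.9% and 59.4%.

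Between XY iPSCs and MEF, 111 of the 1353 resistant tiles were higher (8.20%) and 4 were lower in XY iPSCs. The background was 5.49% higher and 19.4% lower over all tested tiles, and 8.65% and 3.83% over the highly methylated ones. The share of higher tiles was thus near that of highly methylated tiles. The 4 lower tiles were 0.296% of the resistant tiles, a share below both backgrounds. The rule used the XY levels, so this is a description, and its cause was not tested. On the CpGs read in all 11 libraries the share of higher tiles was 4.204% of resistant tiles, 4.47% of all tiles and 6.55% of highly methylated tiles. Without XY 4 these shares were 4.28%, 3.48% and 5.08%, without MEF 4 they were 4.76%, 3.49% and 5.34%, and without MEF 5 they were 3.29%, 2.32% and 3.75%. In each of these settings the resistant tiles were below the highly methylated tiles. The order was the other way with limma on log2 ratios (8.72% against 7.99%). It was also the other way with 20 reads in each library (12.2% against 10.1%). The rule used the contrasts of XaXa with XO and XY iPSCs, and nothing is read from them. XaXa was lower than XO in 1319 and than XY in 1296 of the 1353 tiles, and higher in 0 of them, where the background was 74.2% and 69.3% lower and 0.0229% and 0.101% higher over all tested tiles, and 99.8% and 99.6% lower over the highly methylated ones.

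The resistant tiles with the highest lower XaXa level, among those with 100 reads in both XaXa libraries and 20 in each SSEA1 and MEF library, held no copy of the recurring arrangement. The highest was on chromosome 6 (67544001 to 67545000), with 3 CpGs. It was at 89.2% and 85.02% in XaXa 7 and 8, from 90% (XO 3) to 100% (XO 9) in XO, and at 95.5%, 95.6% and 94.9% in XY. It was at 94.7% and 90.6% in SSEA1 negative and positive cells and at 100% in both MEF libraries. Both XaXa libraries were the lowest of the 13. A tile on chromosome 4 (130944001 to 130945000) with 15 CpGs was the most even, at 80.2% and 80.3% in XaXa 7 and 8 from 243 and 876 reads. It was from 89.6% to 94.3% in XO, at 88.7%, 86.3% and 90.3% in XY, at 94.2% and 90.8% in SSEA1 sorted cells, and at 88.4% and 88.7% in MEF.

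In some of these 10 tiles the fitted level of XaXa iPSCs was above that of fibroblasts, and in the others it was below. A tile on chromosome 3 (57935001 to 57936000) was at 82.0% and 80.8% in XaXa 7 and 8, from 83.8% to 95.8% in XO and at 94.4%, 88.2% and 90.5% in XY. It was at 86.4% and 89.2% in SSEA1 sorted cells and at 65.2% and 64.2% in MEF, below every other library. The fitted XY level was 26.6 points above MEF there, given without a test since the rule used the XY level. Tiles on chromosomes 14 (77903001 to 77904000), 13 (66316001 to 66317000) and 5 (142671001 to 142672000) had fitted XY levels 14.2, 21.5 and 14.1 points above MEF, and these were named for that difference after it was seen. Fitted XaXa minus MEF differences in these tiles were 1.94, 5.39 and -1.84 points, in the same order. In the tile on chromosome 13, XaXa 7 and 8 were at 83.9% and 76.8%, against 79.3% and 62.8% in MEF 4 and 5. These groups overlapped there. A tile 18.96 kb from the start of Tln1, which encodes the adhesion protein talin, lay on chromosome 4 (43556001 to 43557000). It was at 84.8% and 79.3% in XaXa 7 and 8 and at 95.7% and 80.8% in MEF 4 and 5, a fitted difference of -5.26 points.

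**Figure D4:**
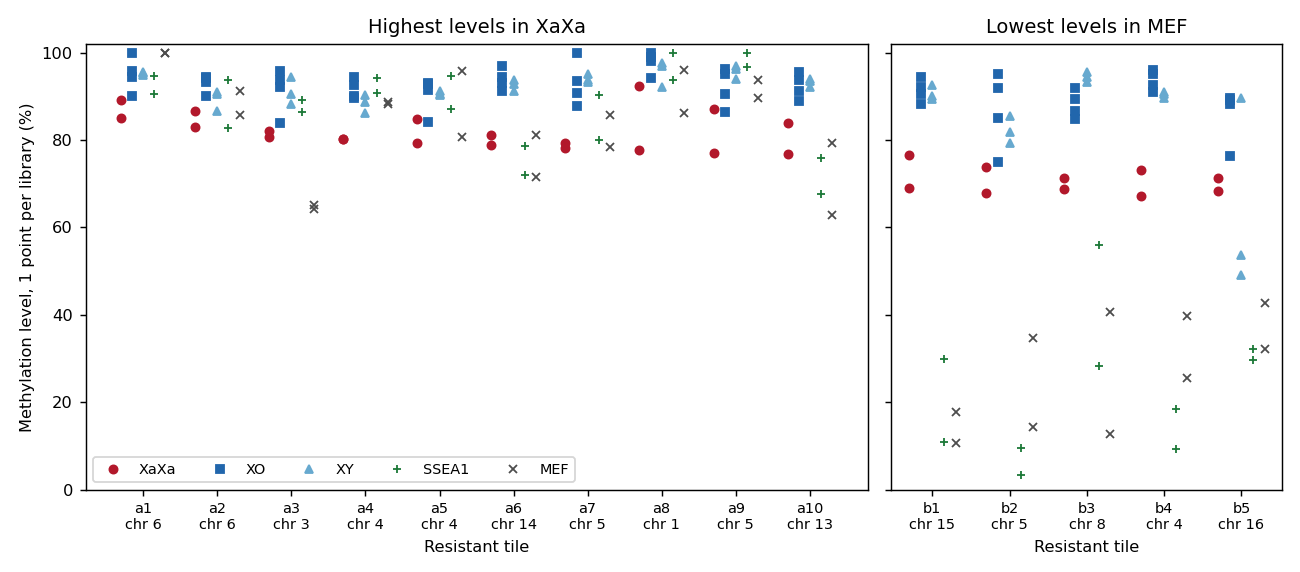
Methylation level in percent (y axis) of 10 resistant tiles with the highest lower XaXa level (left) and 5 with the lowest pooled MEF level (right), 1 point per library, XaXa leftmost and MEF rightmost in each tile (x axis, tile and chromosome). On the right, MEF points lie between 10.8% and 42.7% while XaXa points lie between 67.2% and 76.7%.

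A few resistant tiles were low in fibroblasts. The 5 with the lowest pooled MEF level were chosen for that value. In them the iPSC libraries and the MEF and SSEA1 libraries did not read all the same CpGs, so the gaps cover partly different CpGs. On chromosome 15 (93465001 to 93466000), 39.2 kb from the start of Prickle1, a planar cell polarity gene, the tile was at 69.1% and 76.7% in XaXa 7 and 8. It was from 88.2% to 94.4% in XO and at 90%, 89.5% and 92.6% in XY, against 30% and 10.9% in SSEA1 negative and positive cells and 17.9% and 10.8% in MEF 4 and 5. All 9 iPSC libraries were above all 4 other libraries. On chromosome 5 (64436001 to 64437000), 47.7 kb from the start of Pgm2, which encodes a phosphoglucomutase, the tile was at 73.8% and 67.8% in XaXa. It was from 75% to 95.1% in XO and at 85.5%, 79.4% and 81.8% in XY, against 9.46% and 3.33% in SSEA1 sorted cells and 34.7% and 14.4% in MEF. Both SSEA1 libraries were below both MEF libraries there, with 1 library of each SSEA1 fraction. Of the 11 CpGs of this tile, XaXa 7 and 8 read 3 and 9, MEF 4 and 5 read 4 and 5, and each SSEA1 library read 4.

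Tiles on chromosome 8 (110585001 to 110586000) and chromosome 4 (99994001 to 99995000) also had MEF below the iPSCs, at 71.4% and 68.9% and at 73.1% and 67.2% in XaXa 7 and 8, against 12.7% and 40.6% and 25.6% and 39.7% in MEF 4 and 5. The fifth, on chromosome 16 (32200001 to 32201000), 46.8 kb from the start of Wdr53, split the XY libraries. It was at 71.3% and 68.2% in XaXa 7 and 8, at 88.3%, 89.6%, 89.3% and 76.5% in XO 3, 5, 6 and 9, and at 49.2%, 53.6% and 89.6% in XY 1, 2 and 4. It was at 32.2% and 29.6% in SSEA1 sorted cells and at 32.3% and 42.7% in MEF. It met the rule through XY 4, the deepest XY library with 432 of the reads, and XY 1 and 2 were below both XaXa libraries.

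The deepest resistant tile, relative to the median reads per CpG of each library, was on chromosome 3 (8064001 to 8065000). It had 18.4 times the median depth over 3 CpGs and was at 69.6% and 65.8% in XaXa 7 and 8, against 84.2% to 87.0% in XO and 83.4% to 86.5% in XY. The next 4 had 8.34 to 10.2 times the median depth. They had 3 or 4 CpGs each, and their lower XaXa level was between 65.6% and 68.5%. The resistant tile with the most CpGs, 47, was on chromosome 12 (30687001 to 30688000), 64.6 kb from the start of Pxdn, which encodes peroxidasin. It was at 77.8% and 65.2% in XaXa 7 and 8, from 89.0% to 95.2% in XO and from 91.2% to 92.0% in XY. A pair of dense tiles lay 4 kb apart on chromosome 1 (from 173411001 and from 173415001), with 30 and 31 CpGs over all libraries. XaXa 7 read 8 and 4 of these CpGs (24 reads in each tile), and XaXa 8 read 18 and 8 (81 and 128 reads), so the XaXa levels cover a part of each tile. The first was at 79.2% and 67.9% in XaXa 7 and 8, and from 57.3% (XO 9) to 82.6% (XO 3) in XO, so XO and XaXa overlapped.

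Resistant tiles seldom lay in close groups. There were 6 groups of 3 or more within 10 kb, with 19 tiles in all, and 2 of these groups held a tile with the recurring arrangement. The largest had 4 tiles on chromosome 12 between 5058001 and 5066000, each with 23 to 29 CpGs. Their levels were 73.7%, 79.2%, 77.5% and 83.3% in XaXa 7 and 71.5%, 73.4%, 70.6% and 72.7% in XaXa 8, against 88.8% to 96.6% over the XO libraries and 87.0% to 96.0% over the XY libraries. XaXa was below XO and XY in each of these 4 tiles. XaXa 7 read 15, 9, 7 and 7 of their CpGs, so its levels cover a part of each tile. Near the threshold, among tiles with 100 reads in both XaXa libraries, members on chromosomes 13 (42076001 to 42077000 and 44043001 to 44044000) and 15 (25017001 to 25018000) were at 65%, 65.02% and 65% in XaXa 8. Tiles just outside, on chromosomes 7 (3059001 to 3060000), 14 (114498001 to 114499000) and 17 (14507001 to 14508000), were at 64.99%, 64.96% and 64.94% in XaXa 8.

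Tiles beside the resistant ones, which the rule did not choose, were also higher in XaXa iPSCs. Over the 612 eligible adjoining tiles that were not resistant themselves, the median was 59.7% and 52.0% in XaXa 7 and 8, against 53.4% and 44.2% beside the other highly methylated tiles. They were higher in XO and XY iPSCs as well, at 83.9% in pooled XO and 84.6% in pooled XY, against 80.7% and 81.0%. Away from copies of the recurring arrangement the differences were 7.60 and 9.04 points in XaXa 7 and 8, and 4.04 and 4.16 points in pooled XO and XY. At 10 kb they were 4.34 and 4.70 points in XaXa, and at 50 kb -0.27 and -0.18 points. Of the highly methylated adjoining tiles, 10.4% were resistant beside a resistant tile, against 4.05% beside the other highly methylated tiles. This was reversed at 2 kb, with 8.32% against 9.04%. The shares were 3.03% against 11.2% at 3 kb and 5.66% against 8.38% at 4 kb. They were 5.68% against 4.70% at 5 kb, 7.41% against 3.69% at 10 kb and 8.43% against 3.39% at 20 kb. At 50 kb the order was reversed again, with 2.58% against 3.68%. Away from copies of the arrangement they were 8.57% against 4.70% at 2 kb, 4.83% against 4.97% at 3 kb and 8.37% against 3.75% at 4 kb.

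**Figure D5:**
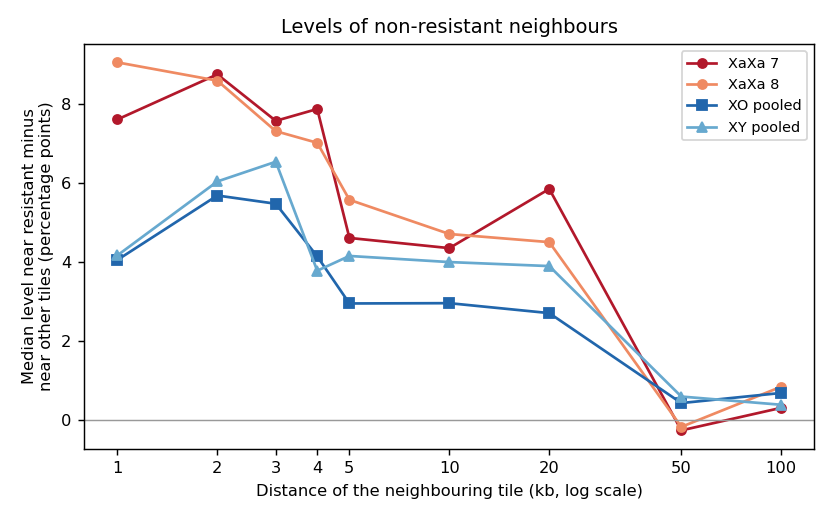
Median level of non-resistant tiles near resistant tiles minus that near the other highly methylated tiles (y axis, percentage points) by distance (x axis, kb, log scale) for XaXa 7, XaXa 8, pooled XO and pooled XY, away from copies of the recurring arrangement. The XaXa differences are 7.60 and 9.04 points at 1 kb and near 0 at 50 kb.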

How the data were processed

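RRBS of 13 libraries was analysed. The authors deposited, per the file headers, the count of all and of methylated reads at each CpG and their fraction. Counts entered every result, while the fraction deposited by the authors entered none. The submitters' processing notes name BSMAP and the build mm9, with no further settings. Counts were summed over the CpGs of 1000-base tiles. Tile differences were tested in a quasi-binomial fit (a mean for each group), with dispersion moderated by limma squeezeVar and kept at 1 or above, an F test and Benjamini-Hochberg adjustment over all tested tiles. The model was checked on simulated data. It did not meet the first criterion set for recovery, since tiles with few reads were seldom recovered, and that criterion was then replaced by checks of bias, null p-values, false calls and recovery by depth. The p-values measure the spread between these libraries, which may be technical. Depth ran from 4784488 to 143148634 CpG reads. No sequence or start site on chromosome 18 was used. Python 3.11.15, R 4.3.3 and limma 3.58.1 were used.

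Members, lists and tests were chosen with earlier results of these data known, and the recurring arrangement was found after the levels were seen. Named tiles are the 10 with the highest lower XaXa level, the 5 with the lowest pooled MEF level, the 5 deepest, the 5 with the most CpGs, the 5 largest groups within 10 kb, the 3 on each side of the threshold, and, added later, the promoter tiles. Some are given as ranges.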

Additional observations from a re-analysis of the deposited data

Results flagged for a closer look

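Of 17 sets of 4 XO values looked at with Dixon's test, 2 held a library far from the others, and chance flags about 1 in 20 groups. XO 9, the shallowest library, was the lowest at the defining CpGs of the recurring arrangement, at 88.4% against 91.3% to 91.7% in XO 3, 5 and 6. It was also the lowest in the tile on chromosome 16 (32200001 to 32201000), at 76.5% from 34 reads against 88.3% to 89.6%.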

How the results depend on the processing

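Over 259 alternatives, 215 values stayed within the spread or within 1.5 times, 44 moved further and 0 reversed. A reversal was looked for only in the SSEA1 and MEF gap and in the adjoining tiles. For the other results a change of direction was not counted as reversed, though the ratios below crossed 1 in some alternatives. The number of resistant tiles, 2296, became 1492 with 50 reads, 509 with 100 reads, 776 with 5 CpGs, 89 with 10 CpGs, 5244 at an XaXa threshold of 60% and 868 at 70%, and ranged from 2185 to 14088 when 1 library was left out. The median gap in SSEA1 and MEF libraries, 4.15 points, became 3.42 with 5 CpGs, 2.81 with 10 CpGs, 2.42 at 80% in XO and XY, 3.39 at 70% in each of their libraries, 5.22 without the recurring arrangement and 0.352 at an XO and XY mean of 90% to under 95% (leave-one-out 3.12 to 4.38). The difference of median CpGs, 0, became -1 with 100 reads and -2 with 10 CpGs (leave-one-out 0 to 1). The ratio of median start-site distances, 1.29, became 0.967 with 10 CpGs (leave-one-out 1.01 to 1.34), and that of reads per CpG, 0.977, ran from 0.863 to 0.993 leave-one-out and was above 1 with 100 reads (1.07) and with 10 CpGs (1.11).

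For XY against MEF, the share of resistant tiles called higher became 4.204% on CpGs read in all 11 libraries (leave-one-out 3.29% to 8.94%), with 2.32% to 6.04% higher and 7.88% to 21.3% lower over all tiles. For XaXa against MEF, limma called 32.9% of resistant tiles lower (leave-one-out 18.8% to 62.4%, over all tiles 43.9% to 70.2%). Against XY, limma called 61.4% lower in XaXa (leave-one-out 48.0% to 96.4%), and against XO the range was 50.04% to 97.5%. All these leave-one-out ranges come from the quasi-binomial model, while limma was run only on all 11 libraries. On all 11 libraries the quasi-binomial model called 60.2% of resistant tiles lower in XaXa than in MEF. It called 95.8% lower than in XY and 97.5% lower than in XO. Of tiles at 65% in XaXa 8, the share also at 65% in XaXa 7 became 90.5% with 50 reads, 92.5% with 100 reads and 82.9% without the arrangement. In the other direction it became 13.5% with 100 reads, 11.7% without the arrangement and 23.6% at an XO and XY mean of 85% to under 95%. The mean XaXa difference of adjoining tiles, 7.07 points, became 10.6 at 2 kb, 5.84 at 5 kb and 8.32 away from the arrangement. The cause of these shifts was not tested. The alternatives that leave out the arrangement, keep a range of XO and XY levels or leave out XO 3, 5 and 9 were chosen after seeing the data. No paired analysis was possible because the groups compared share fewer than 2 replicate numbers. Low depth in XO 9, XY 2 and MEF 4 limits single tiles most.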
